A study of Mus musculus with 8 samples.

Results

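Lrig1, Lrig2 and Lrig3 encode single-pass membrane proteins with leucine-rich repeats and immunoglobulin domains, and Egfr, Erbb2, Erbb3 and Erbb4 encode the ErbB receptor tyrosine kinases. These 7 genes were taken by symbol from the 24047 rows of the deposited count table, and all 7 were found. They were followed in RNA from tdTomato-positive cells sorted from the somatosensory cortex of mice aged 23 to 25 days. All mice carried Glast-CreERT2, a tamoxifen-dependent Cre recombinase under the promoter of an astrocyte glutamate transporter, and Ai14, which makes cells red after Cre has acted. The 4 Ptch1cKO libraries came from Glast-CreERT2; Ptch1fl/fl; Ai14 mice and the 4 WT libraries from Glast-CreERT2; Ai14 mice, and both groups received tamoxifen on postnatal days 12 to 14, as intraperitoneal doses of 10 to 15 µL at 20 mg/ml. Ptch1 is the receptor that restrains Hedgehog signalling, so the comparison asks what follows in astrocytes when that restraint is removed.

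ErbB receptors bind ligands of the EGF and neuregulin families, pair with each other and signal through the Ras-ERK and PI3K-Akt routes. Lrig1 is known as a brake on this family: it binds ErbB receptors and promotes their ubiquitination by Cbl and their degradation, and its relatives share its architecture. In the cortex, ErbB4 is best known from inhibitory interneurons, ErbB3 from the oligodendrocyte lineage, and EGFR from progenitors and glia.

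Libraries held 4061274 to 7206462 counts. The targeted gene Ptch1 ranged from 227 to 491 CPM (counts scaled by TMM-adjusted library size) in WT and from 168 to 258 CPM in Ptch1cKO, and the groups overlapped. Its log2 fold change was -0.67 (SE 0.22; edgeR with Benjamini-Hochberg, adjusted p = 0.349). Counts are summed over the gene and were not separated by exon, so they do not isolate the floxed exons. Of the 10954 genes tested across the deposited counts, 0.1% passed at an adjusted p under 0.05, 0.0822% being higher in Ptch1cKO and 0.0183% lower. Xist, expressed from the inactive X chromosome, had 612 and 1148 counts in a pair of WT libraries (replicates 3 and 2) and no more than 4 elsewhere. Prefixes in the column names are shared by WT replicates 1 and 2, by WT replicates 3 and 4 and by Ptch1cKO replicates 1 and 2, and by no libraries of both genotypes. The meaning of these prefixes is unknown here, and any effect of them cannot be told apart from genotype. The labels do not say that libraries came from separate animals, and p-values then reflect only the spread between samples, which may be technical.

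The sorted cells held RNA of several cell types. Summed over 11 astrocyte markers, led by the glycolytic enzyme gene Aldoc, the deposited TPM (a level per transcript length) was 12971 to 18874 in WT and 10773 to 17564 in Ptch1cKO. The sum of 8 neuronal markers, led by the kinase gene Camk2a, was 9363 to 11629 in WT and 8314 to 9816 in Ptch1cKO. The sum of 10 mature oligodendrocyte markers, led by the myelin gene Mbp, was 7148 to 14369 in WT and 8691 to 11508 in Ptch1cKO. Interneuron markers, led by the neuropeptide gene Sst, summed to 245 to 342 TPM in WT and 255 to 402 TPM in Ptch1cKO. The lists for oligodendrocyte precursors (led by C1ql1) and for microglia summed to 139 to 331 and 451 to 1229 TPM over all 8 libraries. Endothelial markers, led by Tek, stayed at or under 9.85 TPM and mural or fibroblast markers, led by Rgs5, at or under 38.6 TPM. No listed marker was at 0 counts in all 8 libraries, though the interneuron gene Vip came to only 2 pooled counts per genotype and the endothelial gene Cldn5 to 4 and 3. In bulk RNA, fewer cells of a type and less RNA per cell cannot be told apart.

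The sequences shown first are those of the pair on which the results turn, Lrig1 and Egfr, whose levels varied together between libraries. They are the 250 bases upstream of the RefSeq start of each gene on GRCm38.p6, the assembly of mm10, printed 5′ to 3′ on the strand of the gene. The Lrig1 window is chr6:94700146-94700395 (minus strand) and the Egfr window is chr11:16751953-16752202 (plus strand). The last 13 bases of the Lrig1 window lie inside the gene as GENCODE M21 draws it. Capitals mark the GC box GGGCGG and the GLI core CCACCCA, each on either strand.
Lrig1: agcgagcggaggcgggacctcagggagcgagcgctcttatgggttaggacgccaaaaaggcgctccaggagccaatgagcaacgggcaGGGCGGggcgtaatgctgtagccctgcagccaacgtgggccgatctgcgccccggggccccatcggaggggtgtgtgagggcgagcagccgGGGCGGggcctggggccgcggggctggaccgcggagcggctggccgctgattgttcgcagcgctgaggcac
Egfr: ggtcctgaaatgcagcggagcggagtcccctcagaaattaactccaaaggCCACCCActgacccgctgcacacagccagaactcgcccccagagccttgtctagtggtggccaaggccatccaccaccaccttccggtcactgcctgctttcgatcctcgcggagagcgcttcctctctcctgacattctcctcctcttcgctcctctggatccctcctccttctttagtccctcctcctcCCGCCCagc
The Lrig1 window was 71.6% G and C, against a median of 52.4% over 32851 promoter windows of this length, and the Egfr window was 60.8%. GC boxes occurred 2 times in the Lrig1 window and 1 time in the Egfr window, and 32.7% of all windows held at least 1. The 9-base GLI site GACCACCCA, the element bound by the transcription factors at the end of the Hedgehog pathway, was in neither window, and it was in 0.225% of all windows. Its 7-base core CCACCCA, which lies inside that site, began 200 bases upstream of the Egfr start, was not in the Lrig1 window and was in 8.11% of all windows. Windows of the same length were matched for 6 of the 7 genes. The core was also in the Erbb2 window, beginning 250 bases upstream of the start, and not in those of Lrig2, Lrig3 and Erbb4. The 9-base site was in none of these windows. A match of letters is a description of the window and not a binding site.

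The 7 genes spanned a wide range of levels, which are compared here per length on the TPM scale, with the caution that exome capture also shapes levels between genes. Erbb4, the neuregulin receptor, stood highest at 36.2 ± 6.78 TPM over all 8 libraries (SD), and it lay above Egfr in 8 of 8 libraries. Egfr, the receptor for EGF and TGF-alpha, had 15.4 ± 5.27 TPM. Lrig1 had a median of 9.26 TPM over the 8 libraries, and its order against Egfr depended on the genotype. In WT, Egfr (9.22 to 20.3 TPM) was above Lrig1 (5.69 to 9.10 TPM) in 4 of 4 libraries, and in Ptch1cKO it was the higher in 1 of 4, with overlapping ranges. Lrig2 had 5.01 ± 1.47 TPM and lay below Lrig1 in 7 of 8 libraries, the exception being WT replicate 2. The lowest levels were those of Erbb3 (1.33 ± 0.670 TPM), of Erbb2 (0.924 ± 0.424 TPM) and of Lrig3 (0.629 ± 0.490 TPM), all SD over 8 libraries. Lrig2 exceeded Erbb3 in 8 of 8 libraries, whereas Erbb3 exceeded Erbb2 in 7 and Erbb2 exceeded Lrig3 in 6, within overlapping ranges. Within the ErbB family, Erbb4 made up 67.7 ± 7.45% of the summed TPM in WT and 67.7 ± 4.98% in Ptch1cKO (SD, n = 4), and Egfr made up 28.6 ± 8.27% and 27.6 ± 4.57%. ErbB transcripts in these libraries were thus mostly those of Erbb4 and Egfr in both genotypes.

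Among the Lrig genes, Lrig1 stood higher in every Ptch1cKO library than in any WT library. Lrig1 (chromosome 6, 94604529 to 94700158, minus strand, mm10) had 14.5, 10.2, 16.5 and 15.2 CPM in WT replicates 1 to 4 and 26.7, 43.8, 19.7 and 35.2 CPM in Ptch1cKO replicates 1 to 4. The WT libraries lay close together and the Ptch1cKO libraries were spread over a wider range, with replicate 3 nearest to WT. The Lrig1 difference was 2.23-fold (95% interval 1.52 to 3.26), or 1.16 ± 0.26 (SE) on the log2 scale. It did not pass over all genes in the quasi-likelihood test of edgeR with Benjamini-Hochberg adjustment (adjusted p = 0.126, unadjusted p = 0.000424), where it ranked 37 of 10954 genes by p. Of the 5 members tested, Lrig1 alone had groups that did not overlap, beside 5.02% of all genes tested, 2.52% in the higher and 2.5% in the lower direction. It also alone had an unadjusted p under 0.05, beside 9.34% of all genes, 4.8% higher and 4.54% lower. DESeq2, which called 80 genes (0.632% of 12653), called Lrig1 (Benjamini-Hochberg adjusted p = 0.00692). Lrig1 was also called by edgeR without a count filter (Benjamini-Hochberg adjusted p = 0.000936), a fit that called 199 genes (0.967% of 20578). Fitted on only the 2 WT and 4 Ptch1cKO libraries of low Xist (under 10 counts), the Lrig1 log2 fold change was 1.08 (SE 0.32; edgeR with Benjamini-Hochberg, adjusted p = 0.423).

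The last exon of Lrig1 shares 144 bases, at 94604529 to 94604672, with the opposite-strand gene Slc25a26, a mitochondrial carrier, which is 2.58% of the exonic bases of Lrig1. Without a stated strand setting, reads of the pair in that stretch cannot be told apart. Slc25a26 itself had 5 to 24 counts in a library and a fitted log2 value of 0.45 (SE 0.47; edgeR with Benjamini-Hochberg, adjusted p = 0.822), whereas Lrig1 had 65 to 252 counts. Of all 50-base words in Lrig1 transcripts, 1.69% also occurred in another gene, Slc25a26, and none of the 7 members shared such a word with another member.

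Lrig2 and Lrig3, the relatives of Lrig1, had groups that overlapped. Lrig2 (chromosome 3, 104396418 to 104511918, minus strand) had 10.1, 15.7, 15.9 and 18.7 CPM in WT and 9.37, 10.8, 16.2 and 10.7 CPM in Ptch1cKO replicates 1 to 4. WT replicate 1 was as low as most Ptch1cKO libraries, and Ptch1cKO replicate 3 was as high as most WT libraries. The Lrig2 log2 fold change was -0.37 (95% interval -0.93 to 0.20; edgeR with Benjamini-Hochberg, adjusted p = 0.724). Lrig3 (chromosome 10, 125966168 to 126015359, plus strand) had 3, 6, 15 and 1 counts in WT and 3, 8, 1 and 11 counts in Ptch1cKO, too few for the count filter. High and low Lrig3 libraries occurred in both genotypes, and the pooled rate ratio of Ptch1cKO to WT was 0.977 (0.530 to 1.79 as exact 95% interval for counting error alone; exact two-sided permutation test on CPM, p = 0.971). In only the libraries of low Xist, 2 of them WT, the log2 ratio of mean Lrig3 CPM was 1.45 instead of 0.05, and those WT libraries held 3 and 1 counts. Without a count filter, the edgeR log2 fold change of Lrig3 was 0.04 (SE 0.76), so a difference in Lrig3 was poorly resolved at this depth. As a share of the summed TPM of the 3 Lrig genes, Lrig1 was 45.8 to 65.4% in WT and 62.9 to 82.6% in Ptch1cKO. These ranges overlapped through WT replicate 1 and Ptch1cKO replicate 3.

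**Figure D1:**
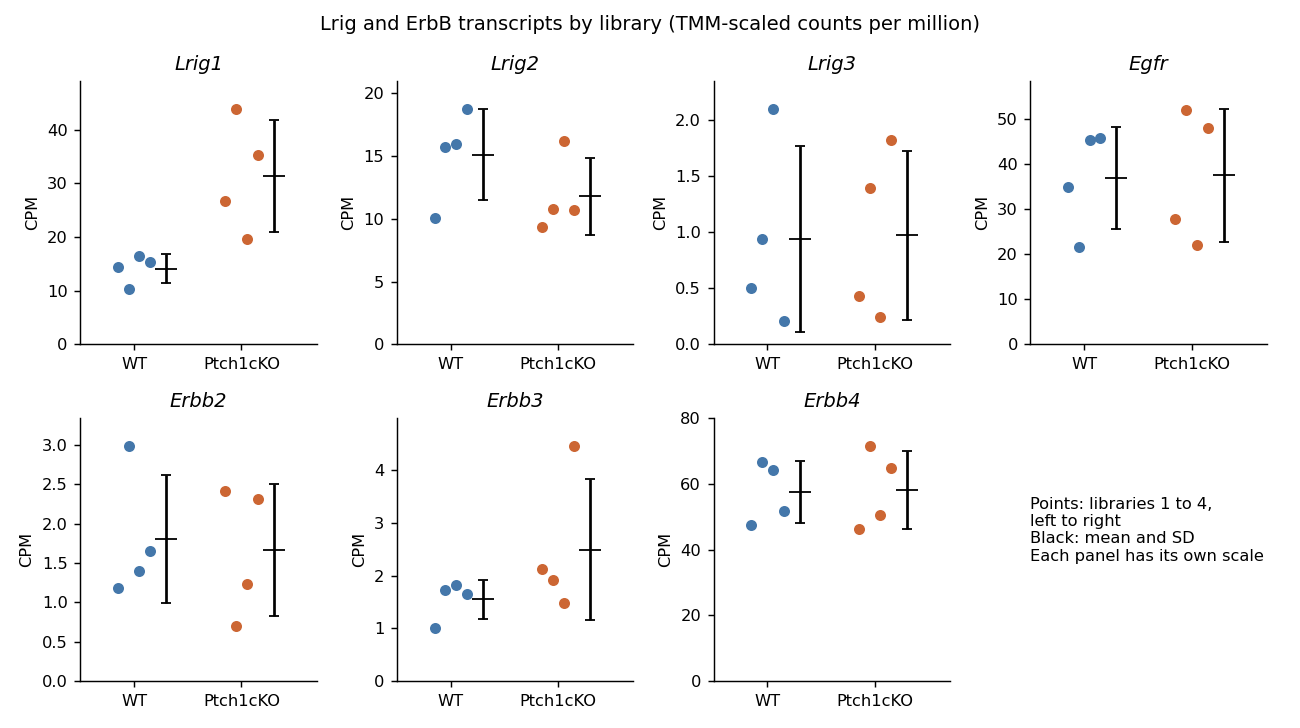
CPM of the 7 Lrig and ErbB genes in each library (vertical axes, from 0, each panel with its own scale) for WT and Ptch1cKO (horizontal axis), with points for libraries 1 to 4 from left to right and the mean with SD in black. The Lrig1 points of Ptch1cKO sit between 19.7 and 43.8 CPM, above the WT points at 10.2 to 16.5 CPM, and the groups overlap in each of the other 6 panels.

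Egfr, the receptor on which Lrig1 is best known to act, averaged 36.9 ± 11.4 and 37.5 ± 14.7 CPM (SD, n = 4) for WT and Ptch1cKO, with a wide spread within each. Egfr (chromosome 11, 16752203 to 16918158, plus strand) had 35.0, 21.5, 45.3 and 45.9 CPM in WT and 27.8, 52.0, 22.1 and 48.1 CPM in Ptch1cKO replicates 1 to 4. Each genotype held libraries near the bottom and near the top of this range, and the groups overlapped throughout. The Egfr log2 fold change was 0.03 on CPM (95% interval -0.59 to 0.65; edgeR with Benjamini-Hochberg, adjusted p = 0.99) and -0.11 on log2(TPM + 1), so no direction is given. The interval covers folds from 0.663 to 1.57.

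Erbb4 was the most evenly expressed member. Erbb4 (chromosome 1, 68032186 to 69108059, minus strand) had 47.4, 66.6, 64.3 and 51.7 CPM in WT and 46.2, 71.6, 50.4 and 64.8 CPM in Ptch1cKO replicates 1 to 4, and the groups overlapped throughout. The Erbb4 log2 fold change was 0.02 on CPM (95% interval -0.37 to 0.41; edgeR with Benjamini-Hochberg, adjusted p = 0.99) and -0.10 on log2(TPM + 1), so no direction is given here either. Its interval was the narrowest of the 5 tested members and covers folds from 0.772 to 1.33. The interneuron markers Gad1 and Gad2, which mark a cell type known for Erbb4, had log2 fold changes of -0.12 (SE 0.30) and -0.22 (SE 0.19). Of 9 interneuron markers tested, 0 passed and 3 were positive, Npy (0.72, SE 0.31), Sst (0.21, SE 0.27) and Lhx6 (0.05, SE 0.40). The lowest of the 9 was Adarb2 (-0.79, SE 0.36). Their part in the Erbb4 level was not tested.

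Erbb2 and Erbb3, the partners that depend on dimerization, were close to the detection limit. Erbb2, which has no known ligand (chromosome 11, 98412470 to 98437716, plus strand), had 7, 19, 10 and 8 counts in the WT libraries and 17, 4, 5 and 14 in those of Ptch1cKO, and did not reach the count filter. Both genotypes held libraries with few and with more Erbb2 reads, and the pooled rate ratio was 0.965 (95% exact interval 0.613 to 1.52, counting error only; exact two-sided permutation test on CPM, p = 0.886). Erbb2 shares 9 exonic bases with opposite-strand Mien1, which had 505 to 794 counts in a library. Erbb3, whose kinase domain is nearly inactive (chromosome 10, 128567523 to 128589652, minus strand), had 6, 11, 13 and 8 counts in the WT libraries and 15, 11, 6 and 27 in those of Ptch1cKO. Ptch1cKO replicate 4 was the highest of all for Erbb3, and the other 7 libraries overlapped. The Erbb3 log2 fold change was 0.69 (95% interval -0.31 to 1.69; edgeR with Benjamini-Hochberg, adjusted p = 0.694), and without Ptch1cKO replicate 4 it was 0.26 (SE 0.51). Beside it, all 7 tested markers of oligodendrocyte precursors had positive log2 fold changes, with a median of 0.33, and 0 passed. They ran from 0.09 for the membrane protein gene Lhfpl3 to 0.90 for the transcription factor gene Sox10. The unadjusted p was under 0.05 for 2 of these 7, Sox10 and C1ql1 (0.72), beside 9.34% of all genes tested. Groups did not overlap for C1ql1, beside 5.02% of all genes tested. Of 9 tested markers of mature oligodendrocytes 6 were positive, with a median of 0.12, and 0 passed. An unadjusted p under 0.05 was found for 4 of these 9, beside 9.34% of all genes tested. They were the myelin genes Mag (1.07), Mobp (0.42), Cnp (0.41) and Cldn11 (0.82), while the abundant Mbp had 0.12. Over 8 libraries the deviations of Erbb3 had r of 0.63 with the summed mature markers and 0.24 with the summed precursor markers. Their part in the Erbb3 values was not tested.

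Taking the members as a list, 5 of 7 were tested, 0 passed over all genes by edgeR and 1 had an unadjusted p under 0.05. Log2 fold changes were positive in 4 and negative in 1 on the CPM scale, beside 49.6% positive over all genes, with a median of 0.03 beside -0.0019 for all genes. The positive values of Egfr and Erbb4 were within 0.03 of 0 and changed sign on the TPM scale. The median of all genes was -0.096 on log2(TPM + 1), beside -0.11 for Egfr and -0.10 for Erbb4.

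**Figure D2:**
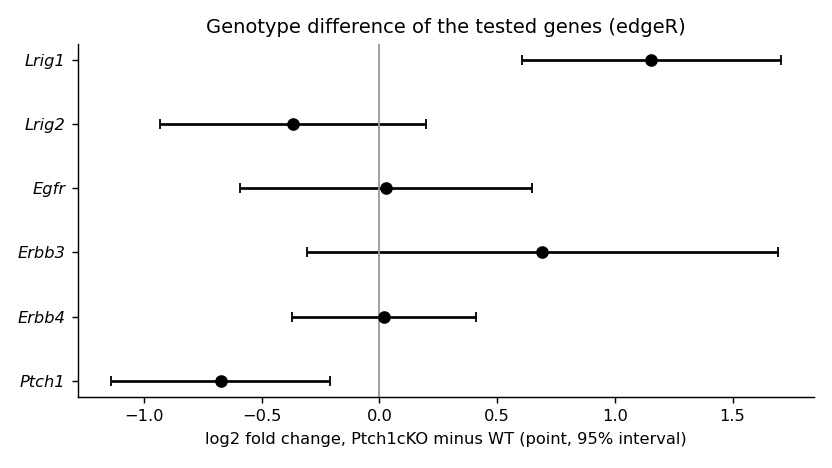
Log2 fold change of Ptch1cKO minus WT (horizontal axis) with its 95% interval from edgeR for the 5 tested Lrig and ErbB genes and for Ptch1, the targeted gene. The interval of Lrig1 runs from 0.60 to 1.71, that of Ptch1 from -1.14 to -0.21, and those of Lrig2, Egfr, Erbb3 and Erbb4 include 0, each interval being for 1 gene without adjustment over all genes.

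The 4 Ptch1cKO libraries had the same order for Egfr and for Lrig1, whereas in WT replicate 4 was above replicate 3 for Egfr and below it for Lrig1. The amount of Lrig1 beside a given amount of Egfr differed between genotypes. The ratio of Lrig1 to Egfr TPM was 0.538, 0.617, 0.474 and 0.432 for WT replicates 1 to 4 and 1.25, 1.10, 1.16 and 0.952 for those of Ptch1cKO. The highest WT ratio was below the lowest Ptch1cKO ratio, and within a genotype the ratio spread less, relative to its mean, than either transcript alone. The mean ratio was 0.515 ± 0.0808 in WT and 1.11 ± 0.124 in Ptch1cKO (SD, n = 4). This ratio was chosen after the values of both genes were seen and is given without a test. Lrig1 alone already separated the groups, and how many other genes divided by Egfr would do so was not counted. Deviations of log2 CPM from the genotype means had a Pearson r of 0.96 between Lrig1 and Egfr over 8 libraries, which share depth and cell composition. Egfr ranked 23 among 6755 genes of at least 10 CPM by this likeness to Lrig1. The other pairs of tested members had r between -0.36 and 0.50.

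**Figure D3:**
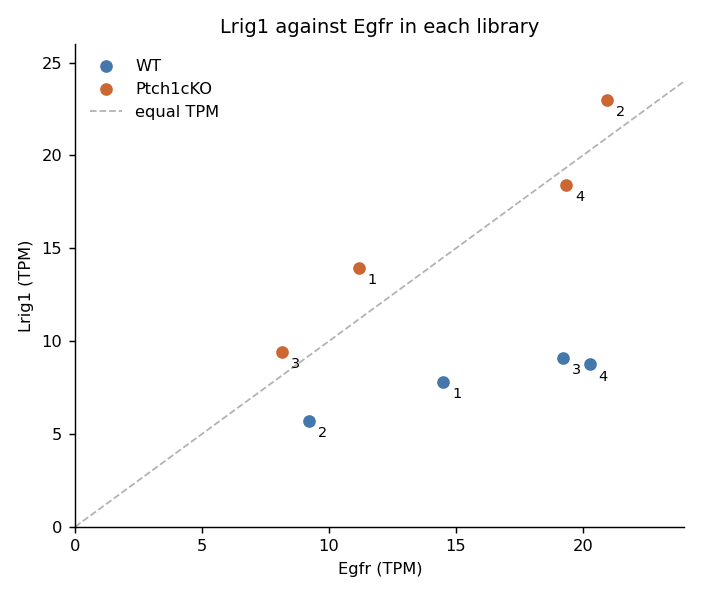
Lrig1 TPM (vertical axis) against Egfr TPM (horizontal axis) in each library, coloured by genotype and numbered by replicate, with a dashed line of equal TPM. The Ptch1cKO points lie along the dashed line, at ratios of 0.952 to 1.25, and the WT points lie below it, at 0.432 to 0.617.

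The same library-to-library variation was visible in cell type markers. The deviations of Lrig1 and of Egfr had r of 0.88 and 0.86 with the log2 summed astrocyte markers and of -0.90 and -0.81 with the microglial markers, over 8 libraries. Ptch1cKO replicate 3, the lowest library for Egfr and for Lrig1 within its genotype, had the lowest astrocyte sum (10773 TPM) and the highest microglial sum (1229 TPM). WT replicate 2, the lowest WT library for both genes, had the lowest WT astrocyte sum (12971 TPM) and the highest WT microglial sum (894 TPM). Between genotypes the astrocyte sums overlapped, with means of 16067 ± 2650 TPM in WT and 15418 ± 3130 TPM in Ptch1cKO (SD, n = 4). This sum was led by Aldoc and Slc1a2 (8916 and 3794 TPM over 8 libraries), with log2 fold changes of 0.08 and -0.23. Of 11 astrocyte markers tested, 9 were positive, beside 49.6% of all genes, with a median of 0.09, and 0 passed. Slc1a2 and Sox9 (-0.03) were negative, and Gja1 (0.50), Slc4a4 (0.49) and Atp1b2 (0.49) were highest. An unadjusted p under 0.05 was found for 1 of the 11, Atp1b2, beside 9.34% of all genes tested. The microglial sums were 700 ± 184 and 862 ± 314 TPM (SD, n = 4), and all 8 microglial markers were positive with 0 passing. The unadjusted p was under 0.05 for 1 of these 8, Ptprc (0.97), whose groups did not overlap, beside 5.02% of all genes without overlap. The part of cell composition in the Lrig1 difference was not tested.

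Genes most like each member by these deviations were taken among genes of at least 10 CPM, as a description. For Lrig1 they were Acss1 (r = 0.99) and Acsl3 (r = 0.98), which activate acetate and fatty acids to CoA esters, and the zinc finger gene Sall2 (r = 0.99). For Egfr they were the lipid flippase subunit Tmem30a (r = 0.99), the splicing gene U2surp (r = 0.98) and the cation channel Trpm3 (r = 0.98). For Erbb4 they were the adhesion gene Alcam (r = 0.98), the proton pump subunit Atp6v0a2 (r = 0.97) and the Slit receptor Robo1 (r = 0.96). Among the genes most like Lrig2 were the signal-regulatory membrane protein Sirpa (r = 0.96) and Cwc15 (r = 0.95). Erbb3 was closest to the tetraspanin Tspan9 (r = 0.95), the importin Ipo11 (r = 0.89) and the sialyltransferase St8sia3 (r = 0.88). None of these genes passed between genotypes by edgeR (adjusted p of 0.477 or more).

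The wider pathway was read from 7 lists of ligands, sheddases, brakes, transducers, targets, relatives and other receptors, of which 92 of 109 genes were tested. By edgeR 0 passed over all genes in either direction. An unadjusted p under 0.05 was found for 5 of them, 2 higher and 3 lower, which is 5.43% beside 9.34% of all genes tested. Groups did not overlap for 2 of the 92, Ccnd1 and Lrfn5, beside 5.02% of all genes tested.

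Of 11 ErbB ligands, 5 were tested, 2 with positive and 3 with negative log2 fold changes and a median of -0.26. Nrg3, a neuregulin that binds ErbB4, had the highest level of the ligands, at 27.4 TPM. It had 31.3, 49.0, 48.5 and 74.9 CPM in WT and 36.9, 23.3, 36.4 and 27.6 CPM in Ptch1cKO replicates 1 to 4. WT replicate 4 was the highest for Nrg3 and WT replicate 1 lay among the Ptch1cKO libraries. The Nrg3 log2 fold change was -0.71 (SE 0.24; edgeR, unadjusted p = 0.0106, Benjamini-Hochberg adjusted p = 0.384). Nrg1, which binds ErbB3 and ErbB4, averaged 18.9 ± 5.68 CPM across WT and 13.1 ± 1.60 CPM across Ptch1cKO libraries (SD, n = 4; edgeR with Benjamini-Hochberg, adjusted p = 0.549). Hbegf, a ligand of EGFR and ErbB4, and Nrg4 had log2 fold changes of -0.26 (SE 0.27) and 0.29 (SE 0.33). Tgfa, an EGFR ligand, had 315 and 304 pooled counts in WT and Ptch1cKO and a log2 fold change of 0.03 (SE 0.24). The other EGFR ligands Egf, Areg, Ereg, Epgn and Btc had at most 4 pooled counts in either genotype, where a difference was not detectable at this depth. Nrg2 had 22 and 30 pooled counts, with 5.41 CPM in Ptch1cKO replicate 3 and at most 1.24 CPM in the other libraries.

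Ligand precursors are cut from the membrane by metalloproteases. Of 7 tested genes of this step, 4 were positive, with a median of 0.23, and 0 had an unadjusted p under 0.05. The sheddase Adam10 had the highest level (93.5 TPM) and a fitted log2 value of -0.04 (SE 0.16). Values were 0.23 (SE 0.22) for Adam17, the main sheddase of EGFR ligands, -0.42 (SE 0.41) for Adam19, 0.37 (SE 0.22) for the neuregulin-cutting protease Bace1 and 0.29 (SE 0.21) for the inhibitor Timp3.

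The brakes and trafficking genes, which include the ligase Cbl recruited by Lrig1, had 6 positive and 8 negative values among 14 tested, with a median of -0.14 and 0 with an unadjusted p under 0.05. Cbl itself averaged 144 and 147 CPM in WT and Ptch1cKO, at a fitted log2 value of 0.04 (SE 0.13), and the feedback inhibitor Errfi1 had -0.25 (SE 0.29). The Cbl adaptor Sh3kbp1 had 0.32 (SE 0.16), the ligase Nedd4 -0.26 (SE 0.15), the endosomal sorting gene Stam -0.34 (SE 0.17) and the endocytic adaptor Eps15 -0.19 (SE 0.11). All 25 signal transducers were tested, 12 positive and 13 negative, with a median of -0.01 and 0 with an unadjusted p under 0.05. The docking protein Gab1 had 0.27 (SE 0.18), and the kinases Akt1 and Akt2 had -0.25 (SE 0.16) and -0.23 (SE 0.13).

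Feedback and target genes of the ERK route are used as a readout of receptor signalling. Of 15 tested, 12 were positive, beside 49.6% of all genes, and 0 passed. Their median was 0.13, beside -0.0019 for all genes. The unadjusted p was under 0.05 for 1 gene (6.67%), beside 9.34% of all genes tested. It was the cyclin Ccnd1, with 85.4 to 94.1 CPM in WT and 108 to 117 CPM in Ptch1cKO, so that the groups did not overlap. Its log2 fold change was 0.32 (SE 0.13; edgeR, unadjusted p = 0.0259, Benjamini-Hochberg adjusted p = 0.46), and 23.4% of its exonic bases overlap an opposite-strand gene. Ccnd1 is also known as a Hedgehog target. The ERK-responsive transcription factors Etv1 and Etv4 had 0.25 (SE 0.15) and 0.40 (SE 0.34), the ERK pathway inhibitor Spry4 had -0.37 (SE 0.34), and its relative Spred1, the highest of the list at 216 TPM, had 0.05 (SE 0.16).

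Among 16 tested leucine-rich repeat relatives of the Lrig proteins, 8 were positive and 8 negative, with a median of -0.02. An unadjusted p under 0.05 was found for 3 (18.75%), beside 9.34% of all genes tested. The synaptic adhesion gene Lrfn5 had 13.6 to 19.2 CPM in WT and 10.2 to 12.9 CPM in Ptch1cKO, without overlap, and a fitted log2 value of -0.60 (SE 0.23; edgeR with Benjamini-Hochberg, adjusted p = 0.424). Islr2, an axonal membrane protein gene, had 8.58, 8.96, 3.35 and 1.85 CPM in WT and 1.99, 0.695, 1.72 and 3.14 CPM in Ptch1cKO, so the groups overlapped. The Islr2 log2 fold change was -1.58 (SE 0.54; edgeR with Benjamini-Hochberg, adjusted p = 0.378). On the log2 scale the adhesion gene Amigo2 had 1.22 (SE 0.55) and Islr, whose exons overlap those of Islr2 on the same strand, had 0.99 (SE 0.48). Lingo1, a neuronal inhibitor of myelination with the highest level at 101 TPM, had -0.05 (SE 0.16). Of 10 tested receptors of other families that Lrig proteins are known to act on, 5 were positive, with a median of -0.01 and 0 with an unadjusted p under 0.05. The neurotrophin receptor Ntrk2 was the highest at 293 TPM, with a fitted log2 value of 0.41 (SE 0.23). Pdgfra, the PDGF receptor of oligodendrocyte precursors, had 0.54 (SE 0.31), and the BMP and activin receptors Acvr1 and Acvr2b had -0.31 (SE 0.29) and 0.65 (SE 0.62).

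**Figure D4:**
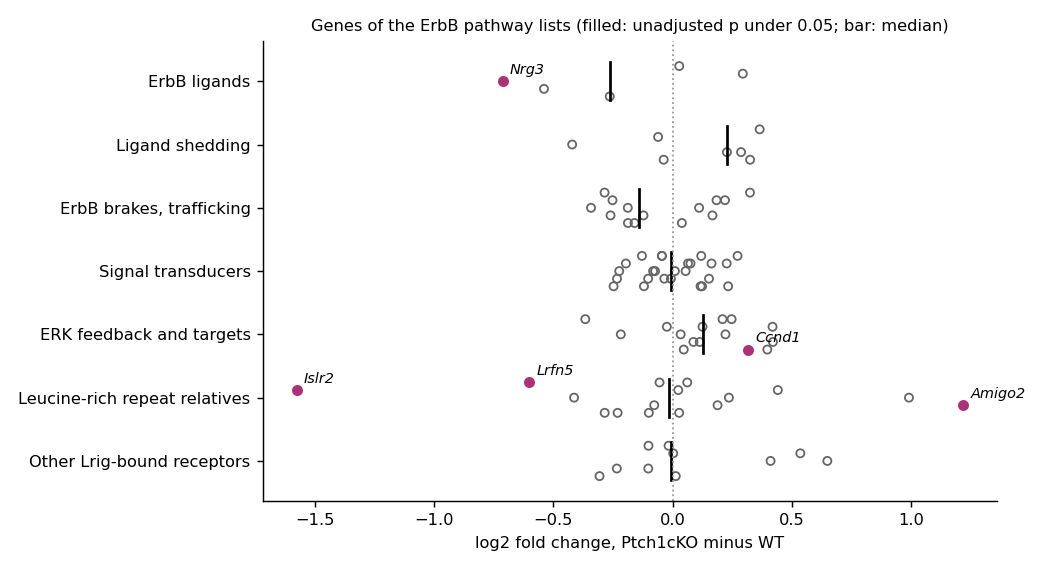
Log2 fold change of Ptch1cKO minus WT (horizontal axis) for the 92 tested genes of 7 ErbB and Lrig pathway lists (rows), with filled points for an unadjusted p under 0.05 and a bar at each list's median. Only 5 points are filled, Nrg3, Ccnd1, Islr2, Lrfn5 and Amigo2, and the list medians lie between -0.26 and 0.23.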

How the data were processed

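Per the labels' protocols, cDNA from sorted cells was made with a low-input system and enriched by exome capture. The submitters' processing notes name bcl2fastq 2.18, STAR 2.5 and build mm10. The read counter, its annotation and its strand setting were not given in the sources used here. Values in the deposited count table are whole reads per gene symbol, not normalized. The deposited TPM table was made by the authors and holds 23585 rows.

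Counts were tested in R 4.3.3 with edgeR 4.0.16 (filterByExpr with minimum count 10, TMM, robust quasi-likelihood F test, group as the only term), with Benjamini-Hochberg adjustment over 10954 genes. CPM uses TMM-scaled library sizes, and an SE is the log2 fold change divided by the square root of F. Members under the filter were compared by exact permutation (two-sided, all 70 assignments), whose smallest p is 0.0286. Alternatives used DESeq2 1.42.0, limma 3.58.1 on log2(TPM + 1) or log2(TPM + 0.1) for genes of mean TPM of at least 1, RLE scaling, no filter, the title numbers as blocks, and fewer libraries. Libraries of a group differed by more than sampling noise in a chi-square test of counts. On simulated data for this comparison with 10713 genes tested, 42% of genes changed 2-fold and 86% of those changed 3-fold were recovered, with 6 of 117 calls false. The simulation held 50 changed genes at each of 1.5-, 2-, 3- and 4-fold. Only 11 genes were called in the deposited counts, so this recovery may not carry over to them.

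The members and lists were chosen with earlier results of these data known. Named genes were the 7 members, Ptch1, in each list the 4 tested genes with the smallest p and the one with the highest TPM, overlapping genes, the 3 genes most like each member, and the leading marker of each cell type. Cbl, Errfi1, Gad1, Gad2, Npy, Lhx6, Adarb2, Sox10, Lhfpl3, Mag, Mobp, Cnp, Cldn11, Vip and Cldn5 were added after their values were seen. So were Slc1a2, Sox9, Gja1, Slc4a4, Atp1b2, Ptprc and Tgfa. A few genes that the rule names are not reported here. Positions are from GENCODE M21 (GRCm38) and promoters from RefSeq (GRCm38.p6). Exons of Nrg1, Nrg4, Adam17, Adam19, Bace1, Timp3, Gab1, Amigo2 and Pdgfra also overlap opposite-strand genes.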

Additional observations from a re-analysis of the deposited data

How the results depend on the processing

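Main values are in the report. The count of genes called, 11, was 80 by DESeq2, 199 without a count filter, 5 with the replicate block, 3 in the libraries with under 10 Xist counts, and 1 and 2 by limma on log2(TPM + 1) and log2(TPM + 0.1). It was 1 to 19 when single libraries were left out: 2, 1, 1 and 1 without WT replicates 1 to 4, and 6, 19, 4 and 2 without Ptch1cKO replicates 1 to 4. The members called, 0, became 1 by DESeq2 and without a filter (Lrig1, log2 fold changes 1.15 and 1.17) and were 0 in every leave-one-out fit. The exact permutation test on log2 CPM of Lrig1 gave a difference of 1.09 with p = 0.0286, the smallest it can give. Lrig1 kept its positive sign in all alternatives run, at 0.96 to 1.32 without single libraries, with edgeR adjusted p of 0.101 to 0.387 there, and 1.11 with the replicate block. Its adjusted p ran from 0.000936 to 0.423 over all alternatives by edgeR, DESeq2 and limma.

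Egfr changed sign with the replicate block (-0.0066), in the libraries with under 10 Xist counts (-0.10), by limma on TPM (-0.11 and -0.12) and in the permutation test (-0.0059), and ran from -0.16 to 0.21 without single libraries. Erbb4 changed sign by limma on TPM (-0.10 and -0.11) and ran from -0.093 to 0.12 without single libraries. Without single libraries the log2 ratios of mean CPM ran from -0.45 to 0.81 for Lrig3 and from -0.35 to 0.24 for Erbb2, and in the libraries with under 10 Xist counts they were 1.45 and 0.24. Over all alternatives Lrig2 (-0.55 to -0.26), Erbb3 (0.26 to 0.93) and Ptch1 (-0.84 to -0.48) kept their signs, and Ptch1 passed without a filter (-0.66). The median of all genes was -0.096 on log2(TPM + 1) and -0.10 on log2(TPM + 0.1). The cause of these changes was not tested. Libraries with the same title number had correlations of -0.17 to 0.018, and 0 of 8 libraries correlated best with their own number. No pairing by title number was seen, but the check cannot exclude one. Some Ptch1cKO libraries carry a different number in the column names than in the titles, and that numbering was not checked. With 6 to 27 reads a library, Erbb3 is limited by depth, as are Erbb2 and Lrig3.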
